A study of Mus musculus with 32 samples.

Results

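The genes examined were Fermt2, which encodes kindlin-2, and 9 partners in integrin adhesion, namely Itgav, Itgb1, Itgb5, Tln1, Vcl, Ilk, Parva, Pxn and Ptk2. They are 10 of the 18138 genes on an Illumina MouseRef-8 bead array, and every probe carrying one of their symbols was taken, 14 of the 25697 probes. Fermt2 was picked because its difference between ethanol and control arrays was already known, so the differences between these groups are given for each member as a description, with intervals and no p-value of its own. Frontal cortex RNA was hybridised from 32 female F1 hybrid mice of C57BL/6J and FVB/NJ, 1 array per mouse, and the treated mice were young adults. In the ethanol group, 20 mice had a choice of 20% ethanol or water in daily 3-hour sessions of the dark phase for 20 days. The 12 control mice received no ethanol. By the methods, the mice were killed 20 hours after the final session. Intake was voluntary, and the intake of each mouse was not used here. The arrays lay on 4 chips of 8 positions each. Chips 1 and 2 held ethanol mice only, chip 4 held control mice only, and chip 3 held 4 mice of each group, with ethanol at every odd and control at every even position. Treatment therefore cannot be told apart from chip on chips 1, 2 and 4, nor from odd or even position on chip 3.

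Integrins are paired alpha and beta chains that hold a cell to the extracellular matrix. Talin and kindlin bind the short tail of the beta chain inside the cell and switch the receptor to its ligand-binding state, and vinculin, paxillin, focal adhesion kinase and the complex of integrin-linked kinase, PINCH and parvin then tie the receptor to actin and to signalling. In brain, these proteins take part in the contact of astrocyte endfeet with the vessel wall, in neurite growth and in the shape of synapses. The tissue was bulk cortex, in which fewer cells of a type and less RNA per cell cannot be told apart.

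What the array could see of this machinery depended on the probe. Of the 14 probes, 7 were above background with a detection p-value under 0.01 on at least 24 of 32 arrays, and they covered 7 of the 10 genes with 1 probe each (Fermt2, Itgav, Itgb5, Vcl, Ilk, Parva and Ptk2). A probe holds 50 bases, of which the first 30 are shown 5′ to 3′ for the Fermt2 probe, on which the results turn, for Itgav and both Ilk probes, whose levels are followed below, and for the silent Itgb1 and Tln1 probes. The number in each name is the base of the transcript at which the probe starts, as the deposited annotation gives it. Capitals in the first Itgb1 probe mark 12 bases that occur again from base 39 of the same probe.
Fermt2, base 3083: ctattacatctgcgttggtgctagttagac
Itgav, base 3661: cctcttcagttactgttcctaattgactgt
Ilk, base 1342: ggcctaccgtcccaccaggtatttcccccc
Ilk, base 494: catctgtaacaagtatggagagatgcctgt
Itgb1, base 14: AGGCCCGCCGACgccacccgagaccaaccg
Itgb1, base 3472: cacaaatactgtaagctgtcctgctgcttg
Tln1, base 5566: tgacagaggccgtagaagacctgacgacga

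The probes below background covered the most widely used beta chain and its activator. Itgb1 (chr8:128685654-128733579 of GRCm38.p6, as all gene spans here), the beta chain shared by many integrins, had 2 probes, each detected on 1 of 32 arrays, with median signals of 178 and 164. The probe at base 14 was 76.0% G and C, a share above that of 99.8% of the probes on the array. Tln1 (chr4:43531513-43562583), which encodes talin-1, was detected on 0 arrays with a median signal of 157, and the Ilk probe at base 494 on 0 arrays with 163. The lowest detected signal of an array ran from 160 to 224, with medians of 200 in ethanol and 180 in control arrays, and the medians of these probes lay below that range or in its lower part. Such a probe gives only an upper bound on its signal, and it does not show that the gene was silent in the cortex. For Pxn (chr5:115491970-115555987), the adaptor paxillin, 2 of 3 probes were detected on 0 arrays. The third, at base 2913, was detected on 13 of 20 ethanol and 7 of 12 control arrays, with signals of 181 to 259 (median 206) and 159 to 216 (median 189). These ranges overlapped, and the probe stayed out of the tests.

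**Figure D1:**
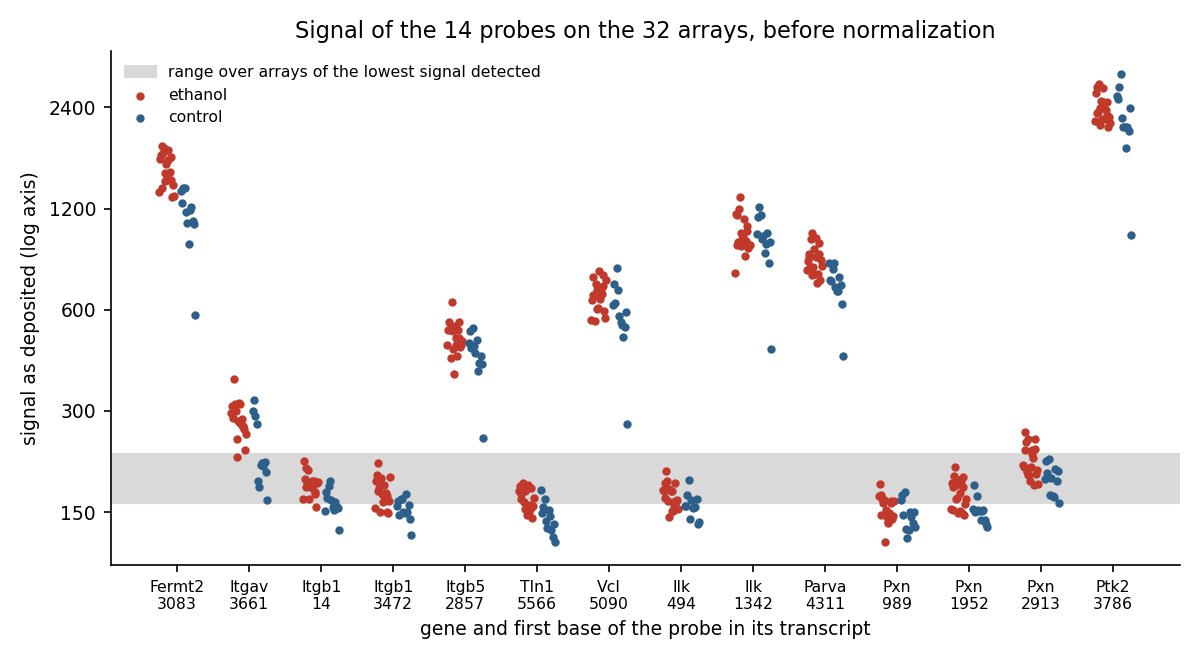
Deposited signal of all 14 member probes on each of 32 arrays, on a logarithmic axis in scanner units, with ethanol and control arrays in separate colours. The grey band is the range of 160 to 224 in the lowest detected signal of an array. The tested probes lie above the band, except that Itgav falls into it on all 8 arrays of chip 4 and 1 ethanol array, and control mouse C66 is the lowest point for Fermt2, at 579 before normalisation.

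Fermt2 (chr14:45458792-45530310), the kindlin of most solid tissues, was higher in the ethanol mice. On the log2 scale after variance stabilisation and quantile normalisation, which is used for all levels from here on, the 20 ethanol arrays ran from 10.26 to 10.59 with a median of 10.45. The 12 control arrays ran from 10.03 to 10.32 with a median of 10.21. The groups overlapped only at their edges, with 18 of 20 ethanol arrays above every control and 20 above the control median. The means were 10.44 ± 0.09 (SD, n = 20) and 10.21 ± 0.08 (SD, n = 12), a difference of 0.23 (SE 0.03, 95% interval 0.17 to 0.29), or 17.3%. The median SD within groups over all tested probes was 0.096. In size, the difference ranked 259 among the 10187 tested probes. The highest control array was that of mouse C66, at 10.32, which was also the array with the fewest detected probes (9480 of 25697, against 9480 to 11544 over all arrays).

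On chip 3, where both groups shared a chip, the Fermt2 levels of the ethanol mice were 10.47, 10.48, 10.35 and 10.41. Those of the control mice were 10.21, 10.18, 10.28 and 10.20. The groups did not overlap, as was so for 15.2% of the tested probes on this chip, and their means differed by 0.21 (SE 0.06, interval 0.09 to 0.33). The difference of chips 1 and 2 from chip 4 was 0.24 (SE 0.04, interval 0.16 to 0.31), with 14 of 16 ethanol arrays above all 8 controls. The control mice of chips 3 and 4 had mean Fermt2 levels of 10.22 ± 0.05 (SD, n = 4) and 10.20 ± 0.09 (SD, n = 8), and the ethanol mice of chips 1, 2 and 3 had 10.40 ± 0.12 (n = 8), 10.48 ± 0.05 (n = 8) and 10.43 ± 0.06 (n = 4). Each ethanol mean lay above each control mean. Fermt2 was picked with these differences known, so this order is a description.

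**Figure D2:**
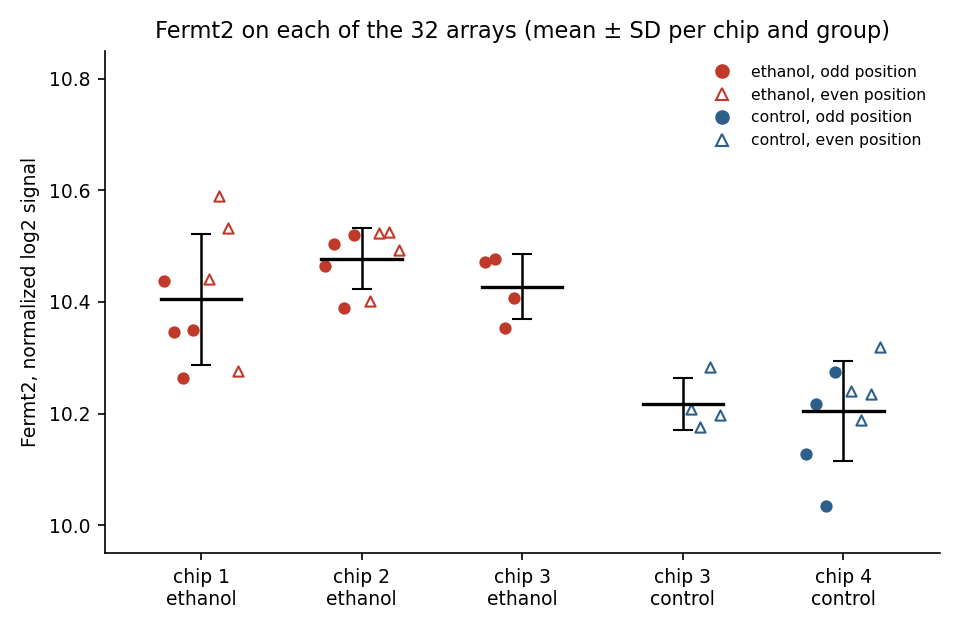
Normalised log2 level of the Fermt2 probe on each array, by chip and group, with odd and even positions marked apart and each mean with its SD. The ethanol means of chips 1, 2 and 3 lie at 10.40 to 10.48, and the control means of chips 3 and 4 at 10.22 and 10.20.

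The 2 ethanol contrasts of Fermt2, on chip 3 and between the other chips, differed by -0.03 (interval -0.17 to 0.12). Contrasts within a treatment group were tested with limma and Benjamini-Hochberg adjustment over all probes. The controls of chip 3 were above those of chip 4 by 0.01 (interval -0.09 to 0.12, adjusted p = 0.906 in limma). Over chips 1, 2 and 4, where each chip held 1 group, odd positions were below even ones by a difference of -0.07 (interval -0.14 to 0.001, adjusted p = 0.183 in limma). Chip 1 was below chip 2 by a difference of -0.07 (interval -0.16 to 0.01, adjusted p = 0.401 in limma). These contrasts share arrays with the ethanol comparisons, and none of the 3 passed an FDR of 1%. In a fit with terms for chip and for position, the ethanol difference of Fermt2 was 0.28 (SE 0.06). Such a fit takes the odd or even difference of chips 1, 2 and 4 to hold on chip 3, which was not tested. Over the whole array, 1 of 10187 tested probes passed an FDR of 1% in it, and no member did.

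Over all arrays, 2 of the 7 tested members were past an FDR of 1%, Fermt2 higher and Ilk lower, where 8.13% of all tested probes were (3.46% higher and 4.67% lower). The median size of the 7 differences was 0.077, against 0.046 over all tested probes. The rule used this contrast, so nothing is read from that count or from those sizes. The count fell to 0 when arrays were scaled by their medians or when chip was a fixed block, with or without position, while the sign of both differences held under all 11 other settings. Between chips 1 and 2 and chip 4 the members past this threshold were Fermt2 and Itgav, 2 of 7 against 15.2% of probes, and on chip 3 there were 0 of 7 against 0.137%, with 3 of 7 at an unadjusted p under 0.05 in limma against 19.5% of probes. Those contrasts too were used by the rule.

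Ilk (chr7:105736590-105742925), the integrin-linked kinase that joins kindlin-2 to parvin and PINCH, was lower in the ethanol mice. Its detected probe, at base 1342, ran from 9.61 to 10.05 with a median of 9.84 in ethanol arrays. In control arrays it ran from 9.83 to 10.10 with a median of 9.97. The ranges overlapped for most arrays, but 1 of 20 ethanol arrays was above the control median and 7 were below every control. The means were 9.85 ± 0.09 (SD, n = 20) and 9.98 ± 0.09 (SD, n = 12), a difference of -0.13 (SE 0.03, interval -0.19 to -0.06). On chip 3 the ethanol levels of Ilk were 9.85, 9.84, 9.89 and 9.94. The control levels were 9.84, 10.07, 10.10 and 9.96. Control mouse C52 was level with the lowest ethanol mouse, and the groups overlapped. The difference on chip 3 was -0.11 (SE 0.06, interval -0.24 to 0.02), close to the -0.13 (SE 0.04) between chips 1 and 2 and chip 4. The 2 differed by 0.01 (interval -0.14 to 0.17), and the controls of chips 3 and 4 by 0.02 (interval -0.09 to 0.13, adjusted p = 0.875 in limma). The second Ilk probe was below background, so the direction rests on 1 probe.

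Parva (chr7:112427706-112591688), alpha-parvin, binds ILK and carries the complex to actin. Its level ran from 9.53 to 9.78 in ethanol and from 9.45 to 9.87 in control arrays, with medians of 9.65 and 9.61. The groups overlapped, and the difference over all arrays was 0.03 (interval -0.04 to 0.10). The highest control was mouse C66, without which the next control stood at 9.70 and the difference was 0.055. On chip 3 the ethanol levels were 9.56, 9.61, 9.78 and 9.66 against control levels of 9.60, 9.51, 9.45 and 9.50, a difference of 0.14 (SE 0.06) with 1 control above the lowest ethanol mouse. It was -0.02 (SE 0.04) between chips 1 and 2 and chip 4. The controls of chip 3 were below those of chip 4 by a difference of -0.14 (interval -0.24 to -0.04, adjusted p = 0.0612 in limma), about the size of the chip 3 ethanol difference. The 2 ethanol contrasts differed by 0.16 (interval 0.02 to 0.30).

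Of the receptor chains, Itgav (chr2:83722303-83806917), the alpha v chain of vitronectin receptors, had its lowest mean in the controls of chip 4. Its ethanol arrays ran from 8.27 to 8.65 with a median of 8.49, and its control arrays from 8.24 to 8.63 with a median of 8.36. Over all arrays the difference was 0.09 (SE 0.04, interval 0.02 to 0.16), with 18 of 20 ethanol arrays above the control median. It was 0.16 (SE 0.03) between chips 1 and 2 and chip 4 but -0.05 (SE 0.06) on chip 3, where the ethanol levels of 8.52, 8.41, 8.46 and 8.53 overlapped with the control levels of 8.54, 8.63, 8.51 and 8.43. The value between chips was 0.28 with log2 values and 0.51 with normexp values. The 2 contrasts differed by -0.20 (SE 0.07, interval -0.34 to -0.07). For this difference 0 of 7 members passed an FDR of 1%, where 3.53% of probes did, and since it is built from contrasts the rule used, nothing is read from that count. The controls of chip 3 were above those of chip 4 by 0.20 (interval 0.10 to 0.30, adjusted p = 0.0062 in limma). Itgav was the only member of 7 past the threshold in that comparison, where 6.49% of probes were. At even positions alone the difference between these controls was 0.18 (adjusted p = 0.0366 in limma), and 0 of 7 members passed against 1.91% of probes, with 2 at an unadjusted p under 0.05 in limma against 23.1%. The all-array value thus rests on chip 4, whose controls had the lowest mean of Itgav, 8.33 ± 0.05 (SD, n = 8), against 8.46 to 8.53 in the other 4 sets of arrays. On the 8 arrays of chip 4 its deposited signal was 163 to 211, within the range of 160 to 224 in the lowest detected signal of an array.

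Itgb5 (chr16:33829665-33949338), the beta chain that pairs with alpha v, ran from 8.79 to 9.18 in ethanol and from 8.95 to 9.24 in control arrays, with medians of 9.03 and 9.04. The groups overlapped, and the difference of -0.02 (SE 0.03, interval -0.09 to 0.04) was smaller than the spread between mice. It was 0.06 (interval -0.07 to 0.19) on chip 3 and -0.05 (interval -0.13 to 0.03) between the other chips.

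Ptk2 (chr15:73205102-73423820), focal adhesion kinase, was lower in the ethanol mice on chip 3 and near the control level between the other chips. Over all arrays its level ran from 10.89 to 11.14 in ethanol mice (median 11.04) and from 10.82 to 11.33 in controls (median 11.11), a difference of -0.08 (SE 0.04, interval -0.16 to 0.002). The controls were the more scattered group, with an SD of 0.15 against 0.08. On chip 3 the ethanol levels of 11.06, 11.002, 10.96 and 11.08 all lay below the control levels of 11.14, 11.20, 11.26 and 11.29. The groups did not overlap, as was so for 15.2% of the tested probes on this chip. Their means differed by -0.20 (SE 0.07, interval -0.34 to -0.06). Between chips 1 and 2 and chip 4 the difference was -0.02 (interval -0.10 to 0.07). The 2 contrasts differed by -0.18 (interval -0.34 to -0.02), the controls of chip 3 were above those of chip 4 by 0.17 (interval 0.05 to 0.29, adjusted p = 0.0510 in limma), and odd positions were below even ones by a difference of -0.09 (adjusted p = 0.130 in limma). With chip as a fixed block the Ptk2 difference was -0.20, and with odd or even position added it was -0.11 (SE 0.07).

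Vcl (chr14:20929383-21033676), vinculin, which links talin to actin under tension, had nearly the same mean in both groups. It ran from 9.06 to 9.56 in ethanol and from 9.16 to 9.50 in control arrays, with medians of 9.35 and 9.34. The difference was -0.004 (SE 0.04, interval -0.09 to 0.09), and on chip 3 it was 0.03 (interval -0.14 to 0.21). With the largest SD of the 7 tested members in ethanol mice, 0.13, differences of the size seen for Ilk on chip 3 lay inside its interval there.

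**Figure D3:**
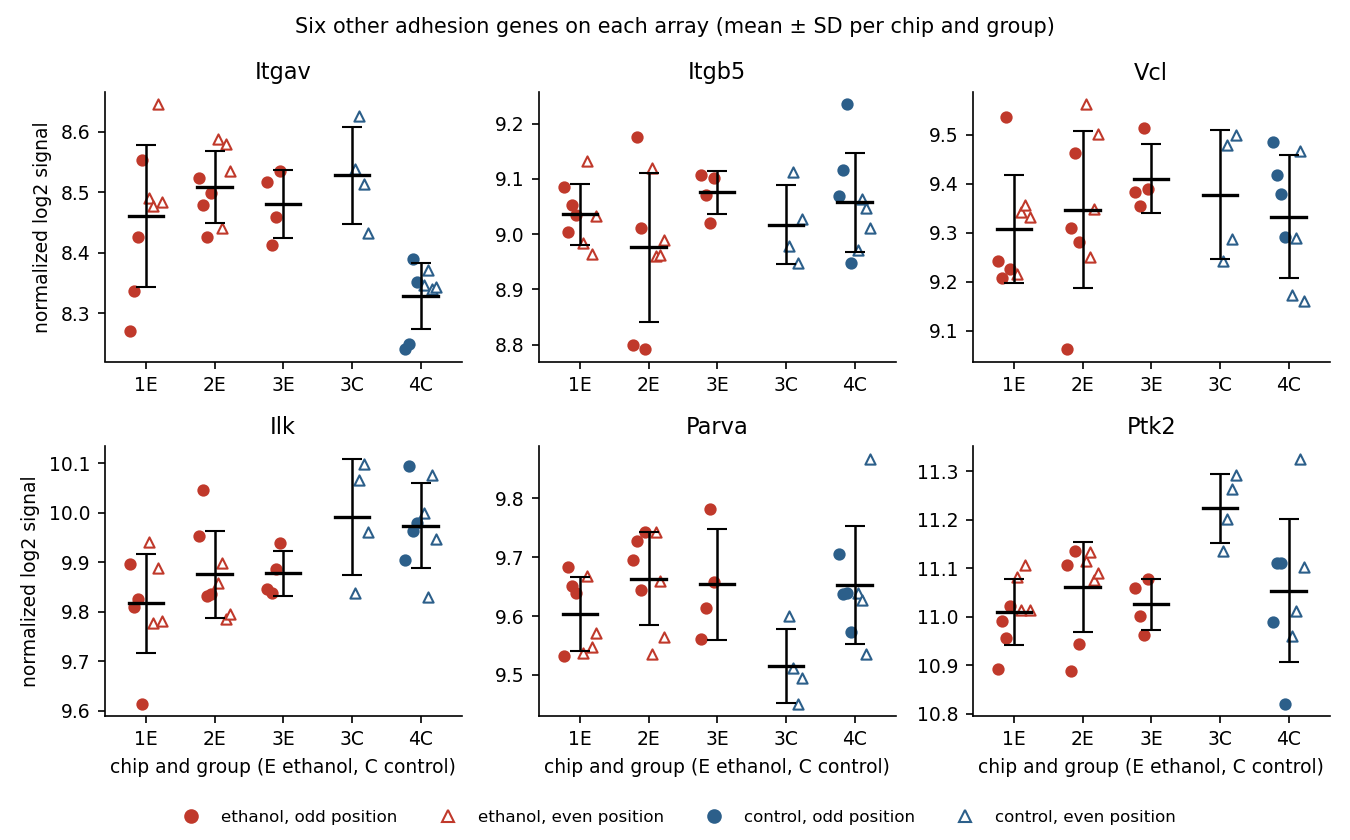
Normalised log2 level of the other 6 tested members on each array, by chip and group, 1 panel per gene with its own axis. The ethanol means of Ilk on chips 1, 2 and 3 lie at 9.82 to 9.88 below control means of 9.99 and 9.97. Itgav is lowest in the controls of chip 4. The chip 3 controls of Ptk2 stand above the ethanol arrays beside them, where 15.2% of all tested probes did not overlap.

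The 7 tested members were also compared by position and between the ethanol chips. Between odd and even positions, 0 of 7 tested members passed an FDR of 1% in limma against 3.99% of probes, with 2 at an unadjusted p under 0.05 against 28.2% of probes, Itgav at -0.07 and Ptk2 at -0.09. In chip 1 against chip 2, 0 of 7 passed against 0.255% of probes, with 0 at an unadjusted p under 0.05 in limma against 16.1%.

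**Figure D4:**
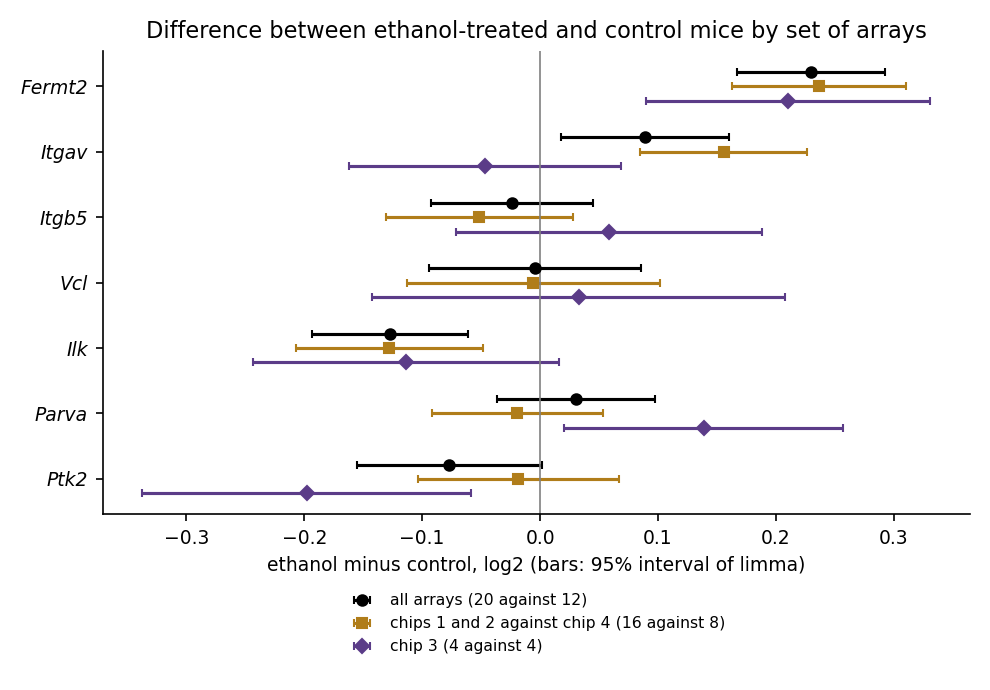
Difference of ethanol minus control in log2 units for the 7 tested members, with 95% intervals, over all arrays, on chip 3, and for chips 1 and 2 against chip 4. Fermt2 lies at 0.23, 0.21 and 0.24 and Ilk at -0.13, -0.11 and -0.13, whereas Itgav is at 0.16 and Ptk2 at -0.02 between chips and at -0.05 and -0.20 on chip 3.

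The wider adhesion machinery was read from 99 other genes, of which 85 were on the array and 40 had a tested probe. Over all arrays, 0 of the 40 rose and 2 fell at an FDR of 1% in limma, or 5% of them, where 9.7% of all tested genes changed (3.95% higher and 5.8% lower). At an unadjusted p under 0.05, 7 of the 40 were higher and 8 lower, where 16.2% and 20.2% of all tested genes were. Both genes that fell belong to signalling downstream of focal adhesion kinase and paxillin, in which 16 of the 20 genes on the array were tested. Src, the tyrosine kinase that works with focal adhesion kinase, had means of 9.06 ± 0.09 (SD, n = 20) in ethanol and 9.31 ± 0.18 (SD, n = 12) in control mice. It fell by 0.25 (SE 0.04, adjusted p = 4.0e-04 in limma), with 0 of 20 ethanol arrays above the control median, and its difference was -0.17 (adjusted p = 0.267 in limma) on chip 3. Git1, a scaffold that binds paxillin and focal adhesion kinase, had means of 8.85 ± 0.09 (SD, n = 20) and 8.99 ± 0.12 (SD, n = 12). It fell by 0.13 (SE 0.04, adjusted p = 0.0084 in limma), with 2 of 20 ethanol arrays above the control median. Its difference was -0.24 (adjusted p = 0.0412 in limma) on chip 3 and -0.09 (adjusted p = 0.0804 in limma) between chips 1 and 2 and chip 4. Without control mouse C66 the count of genes that fell was 1, Src, and with chip as a fixed block it was 0. With log2 or normexp values it was 3, with Git2 beside Git1 and Src. With odd or even position as a covariate the genes past the threshold were others in part, with Elmo2, Pak1 and Zyx higher and Lims2 and Src lower, and Git1 was not among them. The tested probes of Elmo2 went opposite ways over all arrays without the covariate, 0.08 at base 1902 and -0.07 at base 4434.

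In the other groups of that list, 0 genes passed an FDR of 1% in either direction without that covariate. They were 2 tested of 14 integrin alpha chains on the array, 1 of 7 beta chains, 1 of 4 genes of the ILK complex, 7 of 13 actin linkers, 4 of 7 genes that control integrin activation and 9 of 17 matrix ligands. Of the other kindlins and talins, Fermt1 and Tln2 were detected on 0 arrays and Fermt3 on 2, so none was tested. At an unadjusted p under 0.05 in limma, the higher genes among these groups were 1 actin linker and 1 matrix ligand, and the lower were 1 each of the ILK complex, the actin linkers, activation control and the matrix ligands. For the difference of the 2 ethanol contrasts, 2 of the 40 genes passed an FDR of 1%, or 5%, where 4.29% of all tested genes did. They are named because there were only 2, after their values were seen. Pak1, a kinase acting on the cytoskeleton below Rac, had a difference of 0.42 between chips 1 and 2 and chip 4 and of -0.34 on chip 3 (difference of the contrasts -0.77, SE 0.14, adjusted p = 0.0012 in limma). Rap1b, a small GTPase that acts upstream of talin in integrin activation, had differences of -0.12 and 0.24 (difference of the contrasts 0.36, SE 0.07, adjusted p = 0.0011 in limma). Among control mice alone, chip 3 minus chip 4 was 0.57 for Pak1 (adjusted p = 6.0e-04 in limma) and -0.28 for Rap1b (adjusted p = 3.2e-04 in limma). In that comparison 6.49% of probes passed an FDR of 1%. Odd minus even positions differed by -0.26 for Pak1 (adjusted p = 0.0028 in limma) and by 0.05 for Rap1b (adjusted p = 0.376 in limma).

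**Figure D5:**
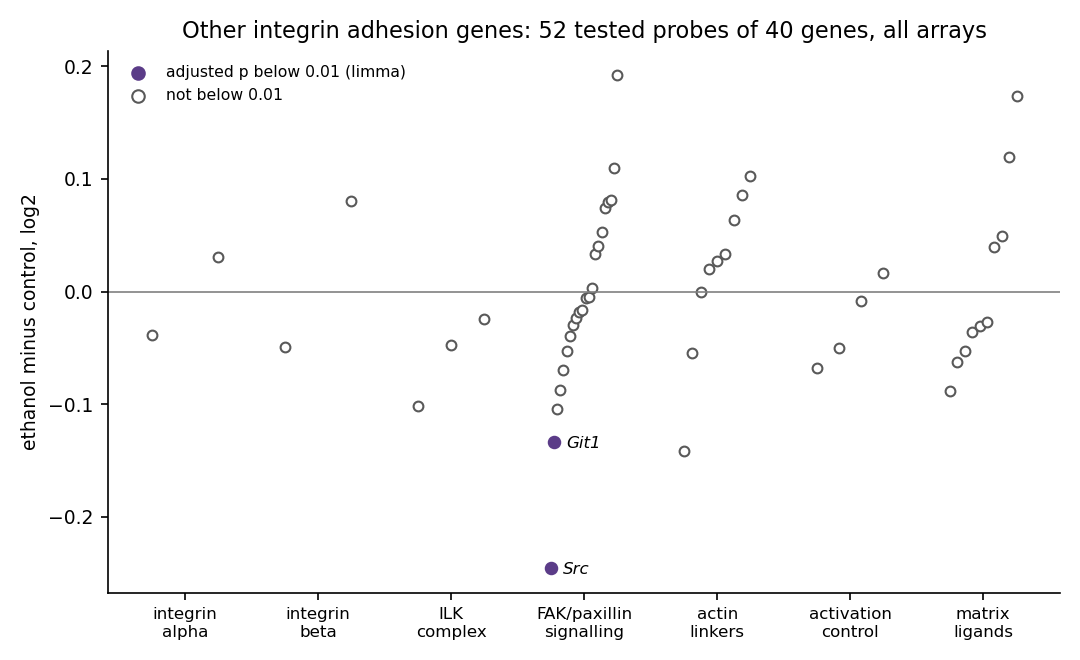
Difference of ethanol minus control over all arrays, in log2 units, for the 52 tested probes of 40 other integrin adhesion genes, grouped by role. Src at -0.25 and Git1 at -0.13 are the 2 genes past an FDR of 1%.

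Mouse-to-mouse variation of Fermt2 was compared with that of every other tested probe after centring each on the mean of its chip, group and odd or even position. Over 32 arrays, Hes5, a Notch target of neural progenitors and astrocytes, had the highest Pearson r with Fermt2, 0.65 (Spearman rho 0.61). It was followed by the splicing factor Rbm5 (r = 0.64, rho 0.55), Ppp4r1, a regulatory subunit of protein phosphatase 4 (r = 0.62, rho 0.56), Eftud1, a ribosome assembly factor (r = 0.61, rho 0.66), and the calcium channel Ryr3 (r = 0.60, rho 0.63). For the 10186 other probes, the 5th and 95th percentiles of r were -0.34 and 0.34. The members were not among the nearest genes. Ilk had an r of 0.19, Parva 0.06, Itgav -0.12, Ptk2 -0.20, Itgb5 -0.25 and Vcl -0.41. These values come from arrays that share chips and normalisation and are descriptions. The named genes are the highest of 10186 probes, and whether such values exceed those of chance was not tested.

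Marker lists were read for the make-up of each sample, as the mean over a list of each gene's deviation from its mean. Astrocyte markers, of which 9 of 10 were tested (Gfap was not), had scores of -0.12 to 0.11 (median 0.04) in ethanol and -0.13 to 0.13 (median -0.05) in control mice. At an FDR of 1%, where 3.95% of all genes were higher and 5.8% lower, 1 of 9 astrocyte and 1 of 3 mural genes were higher, and 1 of 8 endothelial and 1 of 6 neuronal genes were lower. On chip 3, however, the astrocyte score was higher in ethanol mice by 0.15 and that of mural cells of vessels, with 3 of 7 tested, by 0.11. There the oligodendrocyte score (10 of 10 tested) differed by -0.31 and the olfactory bulb score (4 of 7 tested) by 0.44. These 4 differences were 0.04, 0.05, 0.07 and 0.03 between chips 1 and 2 and chip 4. Fermt2 differed by 0.21 and 0.24 in the same comparisons. As odd minus even positions, the 4 scores differed by 0.05, 0.04, -0.10 and 0.28, in the same order. Scores of endothelial cells, microglia and neurons (8, 10 and 6 of 10 tested) differed on chip 3 by 0.06, -0.02 and 0.004, and those of striatum (4 of 8) and blood (2 of 3) by -0.10 and -0.05. In that order, they differed between chips 1 and 2 and chip 4 by -0.04, -0.05, 0.07, 0.01 and -0.07. Their differences of odd minus even positions were 0.005, 0.02, -0.03, -0.09 and -0.11. Of 5 choroid plexus markers, 0 were tested. The part of these shifts in the member differences was not tested.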

How the data were processed

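The deposited table held, per probe and array, a bead signal intensity that the authors exported without normalisation, its bead standard error, the number of beads and a detection p-value. The authors' processing notes name lumi and limma, without versions. Groups and mouse numbers came from the sample labels, and chip and position from the array names. The labels give 1 direction of cross, whereas the methods describe reciprocal crosses; beyond young adulthood, no age of these mice was given in the sources used here. Each array was 1 mouse.

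Intensities were variance-stabilised from the bead standard errors by an own implementation of the lumi transform and quantile-normalised in R 4.3.3. Probes with a detection p-value under 0.01 on at least 24 of 32 arrays were kept (10187 of 25697 probes, 7926 of 18138 genes) and fitted with limma 3.58.1, over all arrays as ethanol against control and, for single chips, with a mean for each chip and group. Odd and even positions were compared within chips 1, 2 and 4. Calls used a Benjamini-Hochberg FDR of 1% over all tested probes. On simulated data with independent noise and no chip effect, 200 probes of 10187 were changed by 0.3 between the groups. The all-array fit recovered 198 of them, with 3 false calls among the probes left unaltered. That simulation does not show how the fit behaves where treatment coincides with chip, as it does here. A gene counted as called where any of its probes was.

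The members and gene lists were chosen with earlier results of these data known. Named genes were all members, other adhesion genes past an FDR of 1% (at most 10 in each direction) and the 5 genes with the highest r to Fermt2; markers were used as lists. Genes named outside this rule are those of counts of 5 or fewer. Gene spans came from RefSeq (GRCm38.p6), in which all 10 member genes matched, 1 by symbol alone. The coding or untranslated place of a probe was not analysed here. Figures used Python 3.11.15 and matplotlib 3.10.9. Precision was limited by the number of arrays. Alternatives were log2 or normexp values (offset 16), median scaling, other probe filters, chip blocks, position, array weights, and leaving out arrays.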

Additional observations from a re-analysis of the deposited data

Results flagged for a closer look

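Among the ethanol mice of chip 1, the Vcl level of mouse A9 was 9.54, apart from the other 7 arrays, which lay between 9.21 and 9.36. This was 1 of 35 sets of arrays examined, and chance sets apart about 1 in 20. Vcl differed by -0.004 between the groups over all arrays.

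The ethanol difference of Itgav on chip 3 minus that between chips 1 and 2 and chip 4 was -0.20 (interval -0.34 to -0.07), a difference between the sets of arrays. It is built from contrasts that were used in choosing the genes and is given as a description.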

How the results depend on the processing

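Under 11 other settings the Fermt2 difference over all arrays was 0.21 to 0.28 and that on chip 3 was 0.18 to 0.25; leaving out each chip 3 array in turn gave 0.19 to 0.24. Between chips 1 and 2 and chip 4 it was 0.32 with median scaling. The Ilk difference over all arrays was -0.16 to -0.076. That of Itgav ran from -0.05 with chip as a fixed block, opposite in sign, to 0.30 with normexp values. The number of members past an FDR of 1% was 2. It was 1 with log2 values, with normexp values, with all probes and with chip as a random block, and 0 with median scaling, with chip as a fixed block and with chip and position together. Fermt2 was the member left wherever 1 remained, but it was picked with this contrast known, so nothing is read from that. The number of other adhesion genes that rose was 3 instead of 0 with position as a covariate. The number that fell was 1 instead of 2 with all probes, with array weights and without control mouse C66 (chosen after seeing the data), and 0 with median scaling, chip as a fixed or random block, or chip and position together. With log2 or normexp values it was 3, with Git2 beside Git1 and Src. Over the whole array, 828 probes passed, against 56 with median scaling, 14 with chip as a fixed block and 1 with chip and position. The cause was not tested. No paired analysis was possible because the groups share no mouse numbers. Between chips 1 and 2 and chip 4, Itgb5, Vcl, Parva and Ptk2, all near 0, changed sign with median scaling, to 0.01, 0.06, 0.07 and 0.05.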
